A study of Mus musculus with 6 samples.

Results

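The genes described here are a naming block of mouse zinc finger genes, chosen by name alone as every gene of the deposited table whose symbol is Zfp followed by a 3-digit number that begins with 9. There were 49 of them among the 16832 genes of the table. GENCODE M21 annotates 64 genes with such names, all numbered between Zfp930 and Zfp995, and the other 15, among them Zfp936, Zfp957, Zfp978, Zfp980 and Zfp986 to Zfp989, have no line in the table and were not analysed here. RNA came from mouse embryos of embryonic day 9.5, from the microdissected second heart field, the mesoderm behind the heart tube that adds cells to both of its ends. The 3 gain-of-function libraries (GoF libraries 1, 2 and 3, genotype Hoxb1GOF;Mef2c-Cre) carry a Hoxb1 gain-of-function allele together with Mef2c-Cre, and the controls (control libraries 2 and 3, genotype CTRL Mef2c-Cre) carry Mef2c-Cre as well, a Cre transgene used to act in second heart field cells. The labels give neither the strain nor whether libraries came from separate embryos or pools, so the p-values measure the spread between these libraries, which may be technical. Control replicate 1 was not analysed here.

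Most mouse genes of this kind encode KRAB zinc finger proteins. An array of C2H2 zinc fingers binds DNA, often within endogenous retroviruses and other transposable elements, and the KRAB box at the other end of the protein recruits Trim28 (KAP1), which brings in Setdb1 to methylate histone H3 on lysine 9 and silence the bound site. The genes lie in tandem clusters that grew by duplication, differ between rodents and other mammals and even between mouse strains, and are expressed in early embryos.

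All values are normalized counts, the authors' read counts divided by 1 factor per library. The libraries held 34260116, 44191917 and 42853609 reads in GoF and 44384354 and 34342568 in the controls. Hoxb1, the targeted gene, had 1021, 1003 and 1041 normalized counts in GoF libraries 1, 2 and 3, against 752 and 610.2 in control libraries 2 and 3 (limma, log2 fold change 0.59, SE 0.12, adjusted p = 0.0147; 0.251 once a trend on GC content is removed, as described below). Mitochondrial genes took 35.7% to 37.4% of reads in GoF and 44.4% and 50.7% in the controls. All 10 second heart field markers examined were in the table, with a summed level of 11572 to 12537 in GoF and 9602 and 11744 in the controls. The 4 blood markers summed to 13475 to 17289 in GoF and to 10712 and 6417 in control libraries 2 and 3. Of 4 liver bud markers, Alb and Apoa1 had no line in the table, and Afp and Ttr together had 222 to 282 in GoF and 531 and 8.7 in control libraries 2 and 3, so these markers differed between the controls. The genes of the other marker lists were all in the table. Sums were higher in every GoF library for cardiomyocytes (56784 to 57420 in GoF, 47979 and 54874 in the controls) and endothelium (4859 to 4998 in GoF, 4282 and 3552 in the controls). The same held for endoderm (3854 to 4229 in GoF, 3254 and 2452 in the controls) and neural crest (2276 to 2372 in GoF, 1882 and 2216 in the controls). The neural list summed lower, to 1626 to 1725 in GoF and 1994 and 1731 in the controls. The part of these cell types in the members' values was not tested. GoF library 1 stood close to the middle of the other GoF libraries: among 1597 genes of a mean of at least 50 whose GoF libraries spanned at least 1.5-fold, it lay between them in 86.5%, at a median position of 0.50 on the way between libraries 2 and 3. Counts of calls are therefore also given without it, for the members and for each group of genes set beside them.

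By sequence most of these genes look like the family their name stands for. Of the 49, 48 are annotated as protein coding and 1, Zfp939, as a transcribed pseudogene. A KRAB box pattern was found in the longest annotated coding sequence of 44 of the 48, and not in those of Zfp953, Zfp956, Zfp974 and Zfp994. The number of C2H2 finger patterns ran from 0 to 21 with a median of 11, and 46 had at least 3. Zfp974 had the most fingers, Zfp993 had 2, and Zfp935, with an annotated protein of 150 residues, had none. Their transcripts were poor in G and C, with a median GC content of 38.6% (33.2% to 54.0%) against 48.2% over all genes. They sit on 11 chromosomes, 33 of them in 7 clusters of neighbours whose starts lie within 2 Mb of each other and 16 alone. The largest clusters, of 10 members each, lie on chromosome 4 (chr4:145510759-147848366) and chromosome 17 (chr17:21567008-22867134) of GRCm38.

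Some members share long stretches with other genes, and reads from such stretches cannot be told apart. The share of 50-base windows of a member's longest annotated transcript that also occur in another annotated gene ran from 0% to 100%. Its median was 11.9%, and exons outside that transcript were not searched. The share was above 20% in 20 members and above 50% in 6, namely Zfp935, Zfp991, Zfp993, Zfp960, Zfp984 and Zfp970. The values of these 6 are uncertain. Between these cuts lay, among others, Zfp971 (42.4%), Zfp934 (41.6%), Zfp990 (27.0%), Zfp976 (21.8%) and Zfp947 (20.05%), so sharing may affect their values as well. The share was below 1% in 9 members, among them Zfp961 and Zfp949 with no shared window. Exons of 11 members overlap those of another annotated gene, on the opposite strand in 3 of them (Zfp943, Zfp961 and Zfp974), and whether the authors counted by strand is not given in the sources used here. All exon bases of Zfp935 lie within exons of Gm49359 or Zfp934.

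In level per kilobase of exon, the members spanned a wide range. Zfp935 and Zfp961 were the highest, with mean levels of 418 and 415 normalized counts per kb, followed by Zfp948 with 308, and the lowest were Zfp981 with 6.66, Zfp993 with 9.47 and Zfp956 with 12.3. The median member had 73.7 normalized counts per kb. All 49 had a mean of at least 10 normalized counts, and 44 had at least 50. Summed over the 49, they had 14931, 14601 and 16384 normalized counts in GoF libraries 1, 2 and 3, against 23219 and 19879.9 in control libraries 2 and 3, so that the sums did not overlap between the groups. Outside the mitochondrial genes this was 0.0672%, 0.0652% and 0.0735% of reads in GoF, against 0.0904% and 0.0835% in the controls.

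**Figure D1:**
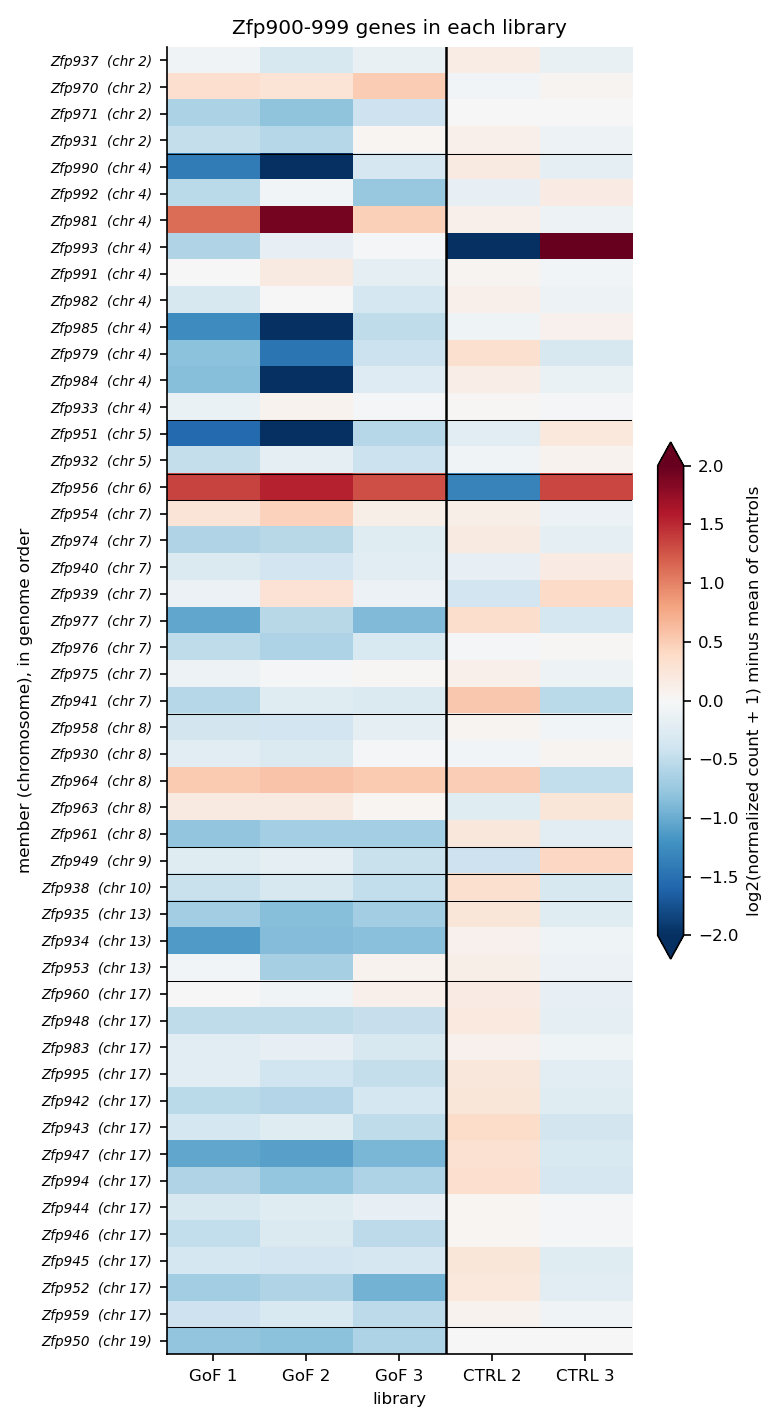
Heat map of the 49 genes (lines, in genome order with their chromosome) in each library (columns, GoF left and controls right), coloured by log2(normalized count + 1) minus the mean of the controls, with the scale ending at -2 and 2. Most lines are blue (below the controls) in all 3 GoF libraries, and the chromosome 4 genes Zfp990, Zfp981, Zfp985 and Zfp984 differ among the GoF libraries.

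Compared with control embryos, GoF embryos had lower levels of 9 of the 49 genes and higher levels of none at an adjusted p under 0.05 (limma on log2(normalized count + 1), Benjamini-Hochberg over 16794 genes). The 9 make 18.4% of the members, where 10.9% of all genes tested were called lower and 12.2% higher. At an unadjusted p under 0.05, 18 members were lower and 0 higher, beside 19.2% and 19.7% of all genes. DESeq2 called 13 members lower and 0 higher, beside 13.3% and 13.1% of all genes, and edgeR called 8 lower and 0 higher, beside 9.91% and 12.3%. The median log2 fold change of the members was -0.37, beside -0.01 over all genes, and 40 of the 49 (81.6%) had a value below 0, beside 50.5% of all genes. In 27 members (55.1%) every GoF library was below both controls, which held for 27.6% of all genes, and in 3 members (6.12%), Zfp964, Zfp970 and Zfp981, every GoF library was above both, which held for 27.3%. In bulk tissue, fewer cells that express a gene and less RNA per cell cannot be told apart. Without GoF library 1, 4 members (8.16%) were called lower, Zfp934, Zfp935, Zfp950 and Zfp961, beside 3.32% of all genes called lower and 4.06% called higher.

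The GC content of transcripts moved with this result. Across the table, genes low in GC tended to be lower in GoF, and the 867 other genes with a GC content at or under the members' median of 38.6% had a median log2 fold change of -0.50, with 305 called lower (35.2%) and 2 higher. When a smooth trend on GC content was subtracted from each library, the median of the members was 0.07, with 22 below 0 and 27 above. None of the 49 was called in either direction (limma, lowest adjusted p = 0.0634, for Zfp961), where 3.33% of 16266 genes were called lower and 3.11% higher. At an unadjusted p under 0.05 in limma, 4 members were lower and 7 higher, beside 13.2% and 13.5% of all genes. The direction of the members as a group thus differed between the values as deposited and the values with the GC trend removed. What the trend comes from was not tested.

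**Figure D2:**
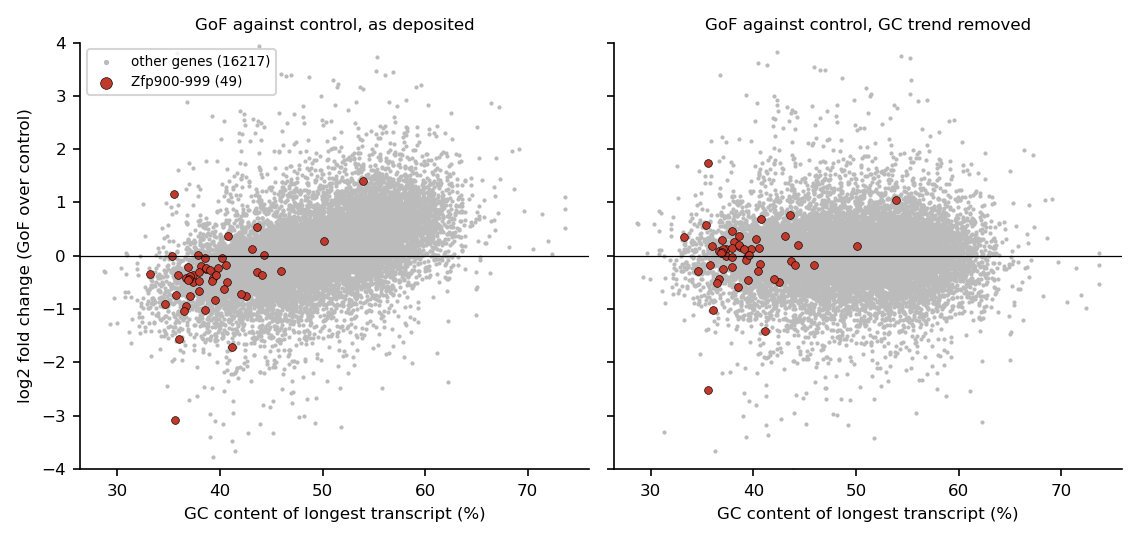
Log2 fold change (GoF over control, vertical axis) against GC content of the longest transcript in percent (horizontal axis) for the 49 genes (red) and 16217 other genes (grey), as deposited on the left and with the GC trend removed on the right. The axis ends at -4 and 4, which leaves out 11 genes on the left and 10 on the right. Most red points lie at low GC content, below 0 on the left, and spread on both sides of 0 on the right.

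The called member with the smallest p was Zfp950, a lone gene on chromosome 19 (chr19:61053840-61140840, minus strand) with 17 fingers. It had 976, 954 and 1106 normalized counts in GoF libraries 1, 2 and 3, against 1699 and 1678 in control libraries 2 and 3 (limma, log2 fold change -0.74, SE 0.10, adjusted p = 0.00541). The groups did not overlap, and the controls were nearly equal. After subtraction of the GC trend, called GC correction from here on, the log2 fold change was -0.18 (adjusted p = 0.243). Zfp961 lies on chromosome 8 (chr8:71951038-71993792, plus strand), and its longest transcript shares no 50-base window with another gene. It had 1357, 1460.0 and 1455 in GoF libraries 1, 2 and 3, against 2718 and 2005 in the controls (limma, log2 fold change -0.71, SE 0.13, adjusted p = 0.0111). After GC correction it was -0.44 (adjusted p = 0.0634). Every GoF library was below both controls, and control library 2 was the highest. These were the 2 calls that held in 14 of 17 alternatives, being lost in the 3 with GC correction. The 14 include the fits that left 1 control, whose p-values hold no spread between controls.

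Both members of the chromosome 13 cluster (chr13:62453715-62571199) fell. Zfp934 (chr13:62479827-62571199, minus strand) had 194, 234 and 237 normalized counts in GoF libraries 1, 2 and 3, against 453 and 401 in control libraries 2 and 3 (limma, log2 fold change -0.95, SE 0.17, adjusted p = 0.00953). Its neighbour Zfp935 (chr13:62453715-62558511, minus strand) had 549, 493 and 553 in GoF, against 1059.9 and 752 in the controls (limma, log2 fold change -0.75, SE 0.16, adjusted p = 0.0171). In both genes the GoF libraries lay below the controls without overlap. Their loci overlap on the same strand and all of Zfp935 is shared with other annotated genes, so the pair may not be independent. After GC correction the log2 fold changes were -0.43 (adjusted p = 0.133) for Zfp934 and -0.25 (adjusted p = 0.272) for Zfp935. The Zfp935 call was also lost without GoF library 2 (adjusted p = 0.0532 with limma).

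In the chromosome 17 cluster the GoF libraries differed little, with a median SD of log2 values of 0.09. Of its 10 members 2 were called lower, where 10.9% of all genes were, and in 8 every GoF library was below both controls, where 27.6% of all genes were. In the other two, Zfp943 and Zfp995, the groups overlapped. The summed level was 3739.6, 3769 and 3823 normalized counts in GoF libraries 1, 2 and 3, against 5896 and 4395 in control libraries 2 and 3, so control library 2 stood above control library 3. Log2 fold changes in the cluster ran from -1.01 to -0.23 with a median of -0.40, and the median after GC correction was 0.04. Zfp948 (chr17:21567008-21588699, plus strand), its most abundant member per kilobase, had 692, 692 and 717 in GoF, against 1127 and 859.8 in the controls (limma, log2 fold change -0.49, SE 0.14, adjusted p = 0.0363). Zfp947 (chr17:22144359-22166190, minus strand) had 37.9, 36.4 and 41.3 in GoF, against 97.3 and 63.6 in the controls (limma, log2 fold change -1.01, SE 0.31, adjusted p = 0.0485). In neither gene did the groups overlap. Both calls were lost when any 1 GoF library was left out, with an adjusted p of 0.0679 to 0.121 for Zfp948 and of 0.0911 to 0.178 for Zfp947 in limma, and Zfp947 was also not called by DESeq2 (0.0505) or edgeR (0.0512). Without control library 2 the log2 fold changes were -0.30 for Zfp948 and -0.71 for Zfp947. On the same chromosome but outside the cluster, Zfp952 (chr17:32993129-33005457, plus strand) had 379, 401 and 318 in GoF, against 711 and 527 in the controls (limma, log2 fold change -0.75, SE 0.18, adjusted p = 0.0224), a call lost without GoF library 1 or 3 (0.0507 and 0.0518). Its log2 fold change without control library 2 was -0.53.

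The other calls were Zfp971 and Zfp976. Zfp971, of the chromosome 2 cluster (chr2:178023284-178034022, plus strand), had 224, 199 and 261 normalized counts in GoF libraries 1, 2 and 3, against 351 and 346 in control libraries 2 and 3 (limma, log2 fold change -0.62, SE 0.17, adjusted p = 0.0368). Zfp970 of the same cluster lay on the other side, with 134, 129 and 151 in GoF, against 102 and 111 in the controls (limma, log2 fold change 0.37, SE 0.20, adjusted p = 0.212). Neither gene's groups overlapped, so these genes had opposite directions, of which 1 passed the test. Of their windows, 42.4% (Zfp971) and 57.2% (Zfp970) are shared with another gene, most often Gm14288 for both. Zfp931, the member next to Zfp971, had a log2 fold change of -0.33 (limma, adjusted p = 0.312), and its groups overlapped. Zfp976 on chromosome 7 (chr7:42609526-42642588, minus strand) had 469.6, 437 and 540.4 in GoF, against 660.1 and 676 in the controls (limma, log2 fold change -0.48, SE 0.13, adjusted p = 0.0387), and its log2 fold change after GC correction was -0.02 (adjusted p = 0.92). Zfp971 and Zfp976 were not called without GoF library 1 or 2 (adjusted p between 0.103 and 0.167 in limma). Without control library 2 or 3 the log2 fold changes were -0.61 and -0.63 for Zfp971 and -0.49 and -0.46 for Zfp976. The chromosome 8 cluster of Zfp930, Zfp963 and Zfp964 had a median log2 fold change of 0.13 and no call, and its sum was 1181, 1152 and 1294 in GoF libraries 1, 2 and 3, against 1259 and 1325 in the controls. Those values overlapped.

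**Figure D3:**
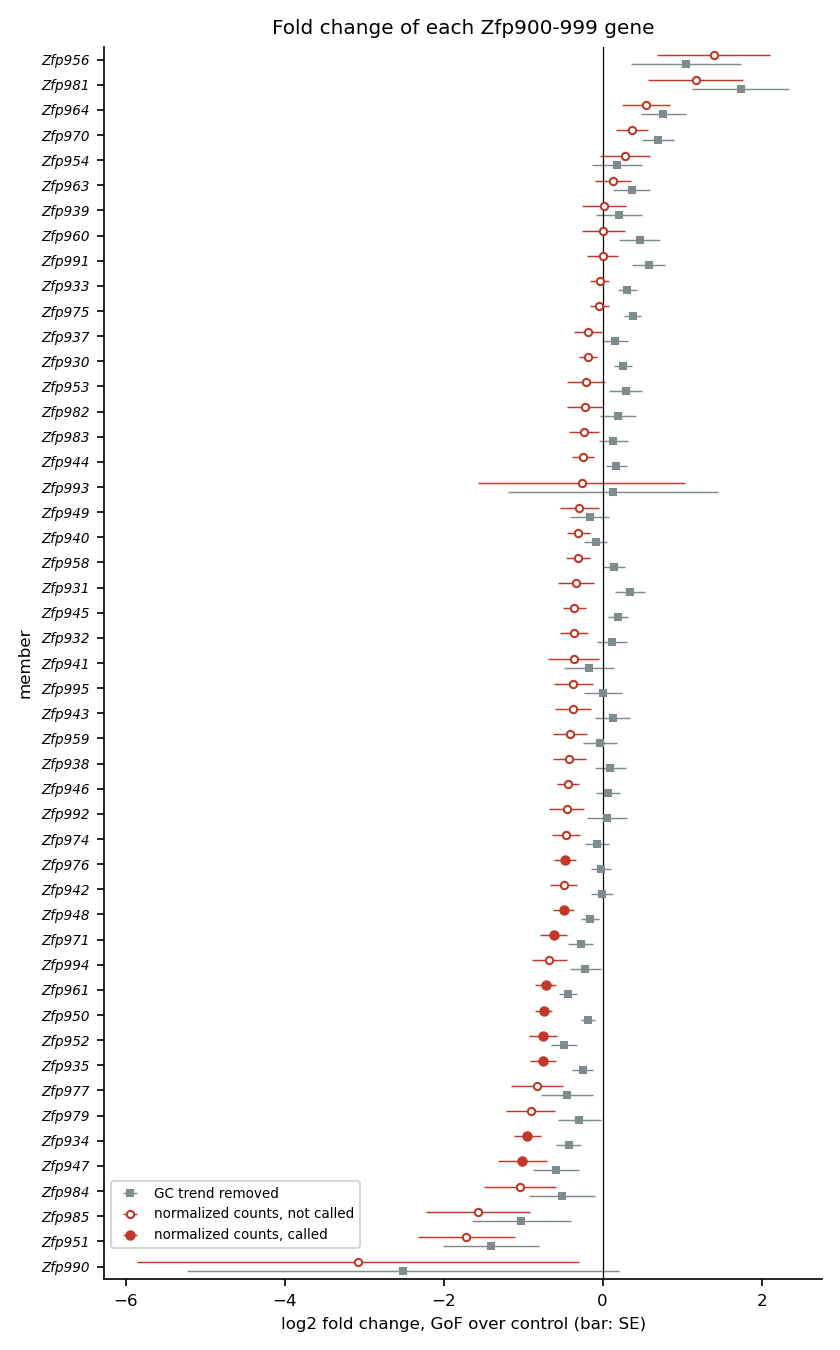
Log2 fold change (GoF over control, horizontal axis) with its SE for each of the 49 genes (vertical axis), from the normalized counts (circles, filled where the adjusted p was under 0.05) and with the GC trend removed (squares). The 9 filled circles lie between -0.48 and -1.01, and the squares lie to the right of the circles for most genes.

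Among the members that were not called, Zfp932 has a described role. In mouse embryonic stem cells it and its near copy Gm15446 bind endogenous retroviruses and hold down genes near them. Zfp932 (chromosome 5) had 183, 222 and 188 normalized counts in GoF libraries 1, 2 and 3, against 242 and 266 in control libraries 2 and 3 (limma, log2 fold change -0.36, SE 0.18, adjusted p = 0.164), and 45.2% of its windows are shared with another gene. It was named for this role and not by its value.

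Several genes of the chromosome 4 cluster differed widely among the GoF libraries. Zfp990 (chr4:145510759-145539188, plus strand), with 13 fingers, had 346, 4.04 and 723 normalized counts in GoF libraries 1, 2 and 3, against 1033 and 809 in control libraries 2 and 3. GoF library 2 held 5 reads of it, GoF library 3 held 894, and the difference between these libraries was 179-fold. GoF library 1 was at 0.95 of the midpoint of the other GoF libraries. All GoF libraries were below both controls, yet the group difference was far from passing the test (limma, log2 fold change -3.08, SE 2.78, adjusted p = 0.484), and without GoF library 2 the log2 fold change was -0.87 (adjusted p = 0.115).

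Further along the cluster, the same order of GoF libraries was seen in Zfp985, Zfp979 and Zfp984, which are described because they lie in the cluster and were picked out after their values were seen. Zfp985 had 30.8, 8.90 and 52.6 in GoF libraries 1, 2 and 3, against 70.3 and 79.9 in control libraries 2 and 3. Zfp984 had 331, 146 and 500.0 in GoF, against 654 and 543 in the controls. Zfp979 had 242, 155 and 317 in GoF, against 533 and 344 in the controls. In each, library 2 was lowest, library 3 highest, and library 1 near their midpoint, which was 30.7 for Zfp985, while library 1 was at 1.02 of it for both Zfp984 and Zfp979. The opposite order was seen in Zfp981, with 24.6, 43.7 and 15.4 in GoF libraries 1, 2 and 3, against 11.7 and 9.98 in the controls, and in Zfp992, with 309.7, 433 and 267 in GoF, against 403 and 503 in the controls. Zfp991, with 172, 195 and 150.5 in GoF, against 178 and 165 in the controls, and Zfp982, whose values follow below, had this order as well with smaller differences. Of the 10 members, 4 thus had library 2 lowest and library 3 highest with library 1 between, and 4 the reverse. The last gene of the cluster, Zfp933, was nearly level, with 607, 700.5 and 650.5 in GoF, against 679 and 659 in the controls. Of the 10 members here, 5 differed over 2-fold between GoF libraries 2 and 3, and none was called between the groups (limma; adjusted p from 0.0681 for Zfp979 to 0.994 for Zfp991, with Zfp979 and Zfp985 at an unadjusted p under 0.05; DESeq2 called 1, Zfp979, and edgeR 0). The share of all genes over 2-fold was not counted, and Zfp981 and Zfp985 had low means, of 21.1 and 48.5 normalized counts. The median SD of log2 values among the GoF libraries was 0.44 in this cluster and 0.09 in the chromosome 17 cluster. Over the other clusters it ran from 0.08 (chromosome 8) to 0.20 (chromosome 2), and over all genes with a mean of at least 50 it was 0.12.

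**Figure D4:**
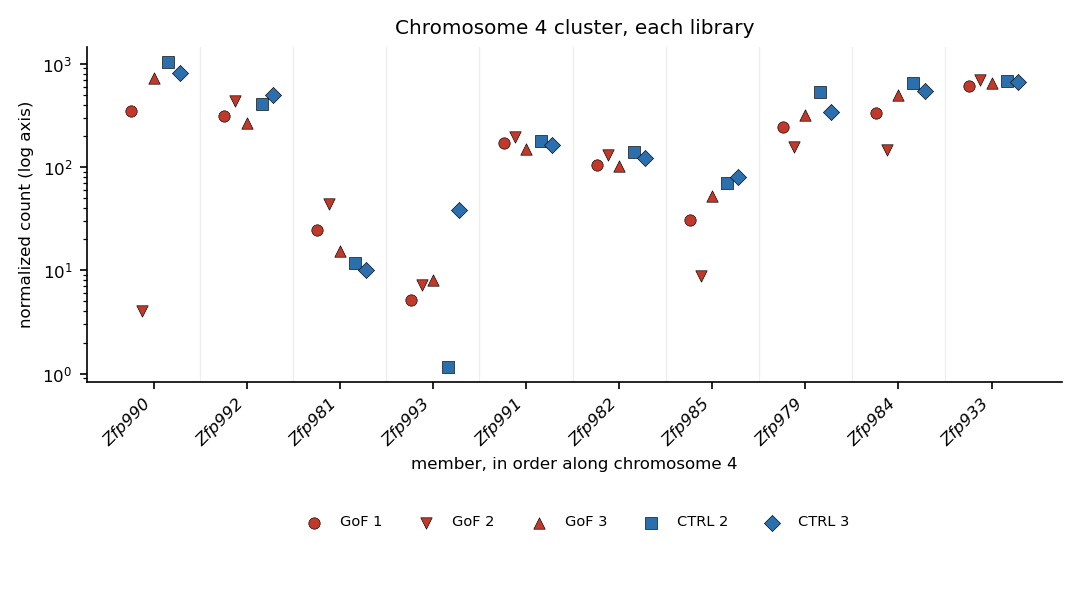
Normalized count (log axis) of the 10 chromosome 4 genes, in order along the chromosome, in each library (GoF red, control blue). In Zfp990, Zfp985, Zfp979 and Zfp984, GoF library 2 (down triangle) is the lowest and GoF library 3 (up triangle) the highest of the GoF libraries, and in Zfp981, Zfp992, Zfp991 and Zfp982 the order is the opposite.

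The start regions of these genes resemble each other, and those of Zfp985, Zfp979, Zfp984 and Zfp981 are shown because these genes have a RefSeq promoter and the clearest differences among the GoF libraries. Each is the stretch from 250 bases before to 50 after the start in RefSeq on GRCm38.p6, written 5′ to 3′ on the gene's strand, with capitals on the longest run of bases that all 4 share, of 15 bases.
Zfp985 (chr4:147553027-147553326, plus strand): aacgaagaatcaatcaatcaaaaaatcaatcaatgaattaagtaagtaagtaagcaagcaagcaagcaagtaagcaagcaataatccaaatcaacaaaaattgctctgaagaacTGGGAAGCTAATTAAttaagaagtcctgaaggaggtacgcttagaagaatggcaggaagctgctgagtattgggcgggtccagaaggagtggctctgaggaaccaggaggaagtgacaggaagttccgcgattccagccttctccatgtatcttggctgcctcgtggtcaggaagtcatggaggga
Zfp979 (chr4:147642459-147642758, minus strand): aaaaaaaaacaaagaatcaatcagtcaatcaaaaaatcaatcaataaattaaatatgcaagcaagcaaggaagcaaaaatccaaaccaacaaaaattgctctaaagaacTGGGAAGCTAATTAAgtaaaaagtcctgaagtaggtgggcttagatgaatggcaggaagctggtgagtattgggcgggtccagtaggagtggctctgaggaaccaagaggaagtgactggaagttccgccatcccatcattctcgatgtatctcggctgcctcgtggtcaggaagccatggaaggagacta
Zfp984 (chr4:147809739-147810038, minus strand): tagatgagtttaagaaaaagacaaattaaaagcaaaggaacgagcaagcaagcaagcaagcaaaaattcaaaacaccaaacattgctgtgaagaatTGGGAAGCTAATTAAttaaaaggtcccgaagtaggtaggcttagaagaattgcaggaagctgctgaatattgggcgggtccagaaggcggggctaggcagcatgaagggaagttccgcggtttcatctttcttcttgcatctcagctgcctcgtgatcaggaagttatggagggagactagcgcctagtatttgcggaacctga
Zfp981 (chr4:146514670-146514969, plus strand): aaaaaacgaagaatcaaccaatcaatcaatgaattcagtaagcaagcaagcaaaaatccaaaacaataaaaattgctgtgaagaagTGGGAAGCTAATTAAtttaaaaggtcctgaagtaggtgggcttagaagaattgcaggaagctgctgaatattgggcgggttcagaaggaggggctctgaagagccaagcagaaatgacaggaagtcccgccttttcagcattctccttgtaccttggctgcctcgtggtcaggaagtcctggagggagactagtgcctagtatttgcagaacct

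Aligned pairwise, the sequences were 80.2% to 90.5% identical, with Zfp985 and Zfp979 the most alike. This run, TGGGAAGCTAATTAA, searched on both strands, occurs in 12 of 32851 RefSeq promoters (0.0365%), belonging to 12 genes that all lie on chromosome 4. Of the 49 members, 43 have a promoter in the table, and 5 of these hold the run: the 4 shown and Zfp982. Of these 5, Zfp979, Zfp984 and Zfp985 were lowest in GoF library 2 and Zfp981 and Zfp982 were highest there. Zfp982 had 105, 131 and 102 normalized counts in GoF libraries 1, 2 and 3, against 139.5 and 122 in control libraries 2 and 3.

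Outside chromosome 4 the same order within GoF was clear in Zfp951 on chromosome 5 (chr5:104813169-104860070, minus strand), a gene with 10 fingers and 1.16% of its windows shared. It had 57.4, 20.2 and 114 normalized counts in GoF libraries 1, 2 and 3, against 148 and 197 in control libraries 2 and 3 (limma, log2 fold change -1.72, SE 0.61, adjusted p = 0.0757). The GoF libraries differed up to 5.64-fold and were all below both controls. It was called by DESeq2 (adjusted p = 0.0385) and, in limma, when GoF library 3 was left out (0.0244). Smaller differences of this order were seen in Zfp931, with 151, 142 and 215 in GoF, against 226 and 195 in the controls, and in Zfp953, with 264, 172 and 286 in GoF, against 295 and 252 in the controls. Of the 44 members with a mean of at least 50, 7 (15.9%) spanned at least 1.5-fold within GoF, beside 11.9% of all such genes and 6.51% of the other numbered Zfp genes. In 6 of the 7, library 2 was lowest and library 3 highest, an order held by 873 of the 1597 such genes (54.7%) over the whole table and by 11 of 19 other numbered Zfp genes. In the other, Zfp992, the order was the opposite, so library 1 was between in 7 of 7, at a median position of 0.52 on the way between the others in these 7.

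The controls differed in another set of members. Over the 44, the median absolute log2 difference between control libraries 2 and 3 was 0.33, beside 0.25 over all genes, and control library 2 was the higher in 34 (77.3%), beside 51.5% of all genes. Zfp941 (chromosome 7) had 92.3, 116 and 113 normalized counts in GoF libraries 1, 2 and 3, against 200.5 and 94.8 in control libraries 2 and 3. Zfp964 (chromosome 8) had 127, 131 and 127 in GoF, against 123 and 62.4 in the controls. Zfp949 (chromosome 9) had 285, 297 and 248 in GoF, against 253 and 450.5 in the controls. In these 3, GoF was even and the groups' difference rests on the control chosen. The log2 fold change of Zfp941 was -0.90 without control library 3 and 0.17 without control library 2. For Zfp949 it was -0.71 without control library 2 and 0.12 without control library 3. For Zfp964 it was 1.03 without control library 2 and 0.06 without control library 3. Each of these fits left 1 control, so its p-value holds no spread between controls and is not given. Of the low genes, Zfp956 (chromosome 6) had 43.1, 49.3 and 41.3 in GoF, against 5.86 and 42.4 in the controls, with 5 reads in control library 2. Its log2 fold change was 2.73 without control library 3 and 0.065 without control library 2. Zfp993 had 5.13, 7.28 and 8.09 in GoF, against 1.17 and 38.7 in the controls, with 1 read in control library 2 and 31 in control library 3. Its log2 fold change was -2.36 without control library 2. Neither was called with all libraries (limma, adjusted p = 0.182 and 0.896), and the part of the blood and liver differences between the controls in these values was not tested.

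**Figure D5:**
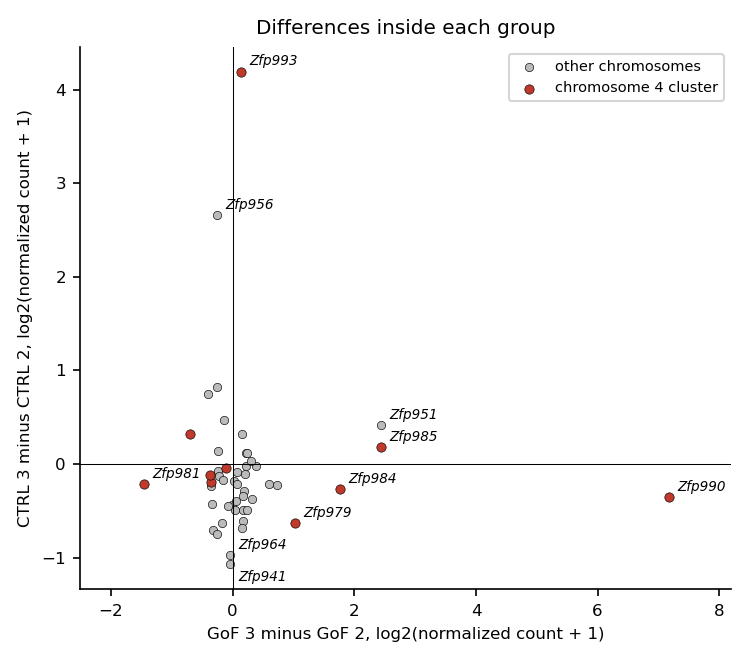
Log2 difference between GoF libraries 3 and 2 (horizontal axis) against the log2 difference between control libraries 3 and 2 (vertical axis) for the 49 genes, chromosome 4 cluster in red. Zfp990 lies far to the right at 7.17, Zfp985, Zfp951, Zfp984 and Zfp979 follow, and Zfp993 and Zfp956 lie high on the vertical axis, away from that group.

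Of the members with the highest fold changes among means of at least 50, Zfp939, the pseudogene, had 119, 159 and 119.7 normalized counts in GoF libraries 1, 2 and 3, against 99.7 and 168 in control libraries 2 and 3. Zfp960 had 60.5, 57.4 and 64.7 in GoF, against 68.0 and 53.7 in the controls, and Zfp963 had 133, 133 and 121 in GoF, against 99.7 and 139 in the controls. The groups overlapped in all 3, with log2 fold changes of 0.02, 0.01 and 0.13 (limma, adjusted p = 0.965, 0.983 and 0.689 for Zfp939, Zfp960 and Zfp963).

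Other zinc finger genes give a scale for these values, in groups that share genes. The older numbered genes of the last group are all among the 306 of the first. Among 306 other genes named Zfp with a number, 36 were called lower and 33 higher (11.8% and 10.8%, beside 10.9% and 12.2% of all genes), with a median log2 fold change of -0.07. Without GoF library 1 these counts were 7 and 8, and after GC correction 5 and 9. Of 135 genes outside the block with a KRAB pattern and at least 3 fingers, 20 were lower and 3 higher (14.8% and 2.22%), with a median of -0.20 (0.07 after GC correction) and a median GC content of 41.7%. Without GoF library 1 these counts were 1 and 0 (limma; 25 of the 135 at an unadjusted p under 0.05 in either direction), and after GC correction 0 and 1 (29 at an unadjusted p). From a list of 82 older numbered zinc finger genes, 74 were in the table, and 42 of these carry the KRAB pattern. Of the 74, 11 were lower and 1 higher (Zfp74, named after its value was seen). Without GoF library 1 none was called in either direction (limma; 13 of the 74 at an unadjusted p under 0.05). The 6 of these with the lowest p, Zfp612, Zfp60, Zfp619, Zfp605, Zfp229 and Zfp871, had log2 fold changes of -0.50, -0.38, -0.63, -0.61, -0.51 and -0.35, and after GC correction none of the 6 was called. Over the 74, 0 were lower and 1 higher after GC correction, which was Zfp74 (limma, log2 fold change 0.57, adjusted p = 0.0229). The difference between the members and these groups was not tested.

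Of 35 listed genes of the machinery that KRAB zinc finger proteins work through, 34 were in the table under the listed symbol. Of these 7 were called lower and 7 higher (20.6% each, beside 10.9% and 12.2% of all genes), 20 did not pass, and the median log2 fold change was 0.02. Without GoF library 1, 3 were lower and 2 higher. Trim28, the corepressor that binds the KRAB box, had 8079, 8856 and 7264 normalized counts in GoF libraries 1, 2 and 3, against 6125 and 5531 in control libraries 2 and 3 (limma, log2 fold change 0.47, SE 0.10, adjusted p = 0.0174), but -0.19 after GC correction (0.264). Setdb1, its histone methyltransferase, named for that role after its value was seen, had 2504, 2636 and 2377 in GoF, against 1908 and 1994 in the controls (limma, log2 fold change 0.36, SE 0.09, adjusted p = 0.0253), and 0.37 after GC correction (0.0416). Mphosph8, a subunit of the HUSH silencing complex, had 5117, 4985 and 5435 in GoF, against 8706 and 7244 in the controls (limma, log2 fold change -0.62, SE 0.10, adjusted p = 0.00717; 0.0397 after GC correction). In each of these genes the groups did not overlap. The HUSH subunit Fam208a and the chromatin remodellers Atrx and Smarcad1 were lower as well, and the DNA methyltransferase Dnmt3b higher, with log2 fold changes of -0.57, -0.65, -0.46 and 0.64 (limma, adjusted p = 0.0155, 0.00533, 0.0181 and 0.00968 for Fam208a, Atrx, Smarcad1 and Dnmt3b), and after GC correction none of these 4 was called. Pphln1, also a HUSH subunit, was not called (limma, log2 fold change -0.14, adjusted p = 0.259). Atf7ip, of the same list as Setdb1, was called lower (limma, log2 fold change -0.53, adjusted p = 0.0424), but not after GC correction (0.088). Pphln1 and Atf7ip were named after their values were seen. After GC correction, 2 of the 34 were higher (Setdb1 and Cbx3) and 3 lower (Mphosph8, Chd3 and Ehmt2). With GoF library 1 also left out, none of the 34 was called in either direction (limma; 10 at an unadjusted p under 0.05).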

How the data were processed

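Per the labels' protocols, RNA of the microdissected second heart field was turned into cDNA with random and poly-T primers from 2 ng, amplified by single primer isothermal amplification, and 100 ng entered each library. The build mm10 and the tools STAR 2.5.2, bcl2fastq 2.17.1.14, DESeq2, HTSeq and R stand in the submitters' processing notes. Annotation, filters and strand setting were not given in the sources used here. The authors' deposited table gives 16832 genes with a normalized signal per library for 5 of the 6 samples, its mean, and the authors' log2 fold change, test score, p-value and adjusted p-value. In the deposited signal 100% of values were whole multiples (within 0.001) of 1 step per library, so the signal is a count divided by a factor and whole reads were recovered. The smallest mean in the table was 6.1, so genes below it were not analysed here.

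Genes whose mean reached 10 were fitted on log2(normalized count + 1) without covariates by limma 3.58.1 (R 4.3.3, trend and robust), and adjusted p-values under 0.05 were called. The added 1 shrinks log2 differences between low values. Fold changes here are differences of mean log2 values, so 1 low library can enlarge them. Zfp990 had a log2 fold change of -3.08 with limma, -1.36 with DESeq2 and -1.33 with edgeR. DESeq2 1.42.0 and edgeR 4.0.16 were run on the recovered reads. GC content, positions, exon lengths and coding sequences come from GENCODE M21 (GRCm38, the same build as mm10), matched by symbol for 16302 genes and used in place of a protein table, which the design had assumed. For GC correction, deviations from gene means were smoothed on GC content within each library by lowess (span 0.3), and the curve was subtracted, along with any real difference that follows GC content. A KRAB box was called from a pattern of its conserved residues in the translated coding sequence, and a finger was counted as C, 2 to 4 residues, C, 12 residues, H, 3 to 5 residues, H. The fits were tested on simulated counts.

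The members and the gene lists were chosen with earlier results of these data known. Named members were the called ones, the 5 highest and 5 lowest fold changes and the 3 largest differences within each group among means of at least 50, and the 3 highest and 3 lowest levels per kb. Other members are named as parts of a cluster, after their values were seen.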

Additional observations from a re-analysis of the deposited data

How the results depend on the processing

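The count of 9 members called lower was 4 to 15 when 1 library was left out: 4 without GoF library 1 or 2, 9 without GoF library 3, 7 without control library 2 and 15 without control library 3. The count of members called higher was 0 with all libraries and 0 when any 1 GoF library was left out. The median log2 fold change was -0.46 to -0.28 when 1 library of either group was left out. With quantile normalization the median was -0.45. After GC correction the median was 0.071, with GoF library 1 also left out 0.096, and together with the replicate block 0.097, with 0 members called lower in each (limma; 11 members, 4 lower and 7 higher, at an unadjusted p under 0.05 in the first and 4 in either direction in the second). At that unadjusted threshold, 13.2% of all genes were lower and 13.5% higher in the first, and 2471 of 16285 passed in the second. Over all genes, 2054 called higher and 1835 lower became 682 to 2724 and 559 to 2547 when 1 library was left out, 506 and 542 with the GC trend removed, 58 and 72 with GoF library 1 also left out, and 73 and 90 with the GC trend removed and the replicate block. Whether replicate numbers pair the samples was not settled. The differences between replicates 2 and 3 in the groups had a correlation of 0.005 over 16794 genes, which cannot exclude a small shared effect. With the replicate block 5 members were called lower, and over all genes 765 were called higher and 606 lower. Among the 29 members with at most 20% of shared windows, an alternative chosen after seeing the data, 4 were called lower. The median of the 29 was -0.36, and 10.9% of all genes were called lower. The remaining called members, Zfp934, Zfp935, Zfp947, Zfp971 and Zfp976, had more than 20% of shared windows. The alternative based on protein identity was not run, as it needs a protein table.

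Changes of sign were seen in members near 0 or resting on 1 library. Zfp939 was -0.0672 with quantile normalization, -0.0121 with DESeq2 and -0.36 to 0.40 when 1 library was left out, Zfp960 was -0.0334 with quantile normalization and -0.16 to 0.18, Zfp941 was -0.90 to 0.17, Zfp949 -0.71 to 0.12, and Zfp963 -0.10 to 0.37. Zfp993 was 0.133 after GC correction, 0.299 with GoF library 1 also left out and 0.299 with the replicate block as well. The cause of these changes was not tested. With 2 controls, the spread between them limits these values.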

Other observations

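Of 14 genes in the table that lie between the chromosome 4 members but are not among them, 6 differed over 2-fold between GoF libraries 2 and 3, and GoF library 1 lay between the other GoF libraries in 9, with library 2 lowest in 4 of these and library 3 lowest in 5. Gm21411, the gene of this interval with the largest such difference after Zfp990, had 17.4, 2.43 and 46.1 normalized counts in GoF libraries 1, 2 and 3, against 59.8 and 43.7 in control libraries 2 and 3. Gm20707, a long noncoding RNA whose exons overlap those of Zfp984 on the same strand, had 170.2, 112 and 248 in GoF, against 278 and 294 in the controls. The pseudogene Gm13241 had 68.7, 95.4 and 34.8 in GoF libraries 1, 2 and 3, against 61.0 and 115 in the controls, the order seen in Zfp981 and Zfp992. The 3 were picked after their values were seen, and what separates the GoF libraries here was not tested. The share of all genes that differed over 2-fold between GoF libraries 2 and 3 was not counted.

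In the authors' deposited table, 13 of the 49 members had an adjusted p under 0.05, and all 13 had a fold change below 0. Over all genes of the authors' deposited table, 13.3% were lower and 13.1% higher at that threshold.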
